A study of Mus musculus with 7 samples.

Results

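Stress genes of the endoplasmic reticulum (ER) and of the integrated stress response were examined in liver RNA from male C57BL/6J mice. The set held 39 genes, named by symbol and not by their measured values, of 51826 genes in the table. All 39 were found, and all 39 were among the 13989 genes that passed the filter on low counts. Liver of 3 wild-type mice was compared with liver of 4 mice homozygous for the Sprtn Y118C knock-in allele, all aged 6 months and untreated. Sprtn encodes a protease that cuts proteins crosslinked to DNA. The labels number the libraries within each genotype but do not say how the animals were housed or fed. The p-values set the genotype difference against the spread within genotypes among these 7 libraries. They cannot separate genotype from differences between the animals that the labels do not give.

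The unfolded protein response begins with 3 sensors in the ER membrane: IRE1 (encoded by Ern1), PERK (Eif2ak3) and ATF6. IRE1 splices the Xbp1 transcript and ATF6 is cut to release a transcription factor, and both act on genes for chaperones and for the degradation of misfolded proteins. PERK phosphorylates the translation factor eIF2, which slows protein synthesis while favouring translation of Atf4. Other kinases that sense amino acid shortage, double-stranded RNA or haem act on the same factor, and this wider pathway is the integrated stress response. Hepatocytes secrete most plasma proteins and hold much ER, and in mouse liver these genes also follow feeding.

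None of the 39 genes passed the test for a difference between the genotypes with all 7 libraries, and for several the intervals were wide. The edgeR quasi-likelihood test called 0 of them at an adjusted p under 0.05, against 5 of all 13989 genes tested (0.0357%), 0.0286% higher and 0.00715% lower in the knock-in, and the smallest adjusted p of the set was 0.346. At an unadjusted p under 0.05, 2 of the 39 were counted, Psat1 higher and Atf4 lower in the knock-in, against 10.6% of all genes. DESeq2 and limma-voom also called 0 of the 39, against 1.36% and 0.05% of all genes they tested. The authors' deposited table held 0 of the 39 at a corrected p under 0.05, against 0.633% of its genes. Of the 39 log2 differences (knock-in minus wild type), 21 were positive and 18 negative. Their median was 0.03 beside 0.00070 over all genes tested. The 2 genotypes did not overlap for 2 of the 39 genes, a share below the 10.9% of all genes.

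**Figure D1:**
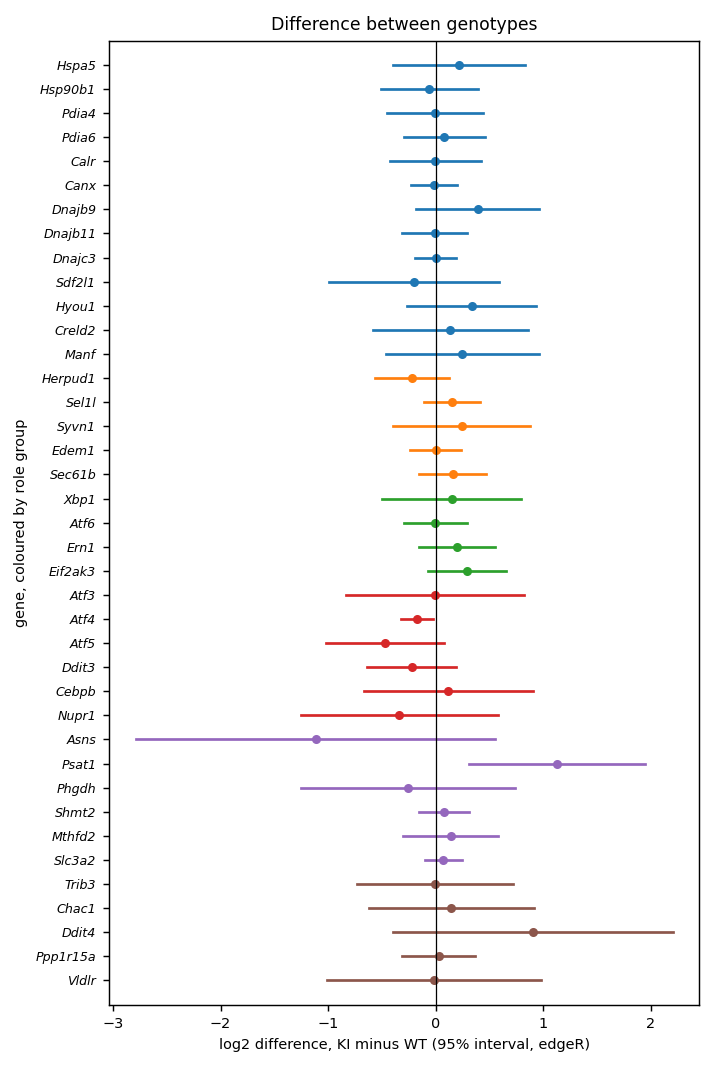
Log2 difference between the genotypes (horizontal axis, knock-in minus wild type) for each of the 39 genes (vertical axis, coloured by role group), with edgeR 95% intervals as lines. The intervals of Atf4 and Psat1 lie beside 0 and the other 37 include it.

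Total counts ranged from 36928472 to 46755357 per library. Markers of hepatocytes such as Alb were abundant in every library, with a summed 65316 to 86456 CPM (counts divided by the scaled library size) for 5 genes. On the main axis of variation over all genes, wild-type replicate 1 fell within the knock-in range and the other wild-type libraries outside it. Knock-in replicate 1 held skeletal muscle transcripts, at a summed 64.1 CPM for 5 genes against 0.420 to 0.974 CPM in the others. Pancreatic acinar cells and plasma cells have very active ER folding, and their markers were looked at for that reason. Cpb1 and Amy2a5 were at 0 in all 7 libraries, and Cpa1, Ctrb1, Pnlip and Prss2 were at or below 0.132 CPM. Cela1, the other marker on the acinar list, had 9.83 to 31.3 CPM. The 5 B and plasma cell markers summed to 5.69 to 11.3 CPM in the wild-type livers and 5.06 to 10.3 CPM in knock-in livers, most of the range coming from Derl3 (1.52 to 7.56 CPM). Derl3 was also on the wider list of ER folding and degradation genes, so it is no separate marker here.

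Promoters of 7 of the 11 chaperone genes with an entry hold a sequence already known from the unfolded protein response. The genes were listed as members of that response, so finding it is no independent support. The ER stress response element, bound by ATF6 with the factor NF-Y, reads CCAAT, then 9 bases of any kind, then CCACG. Promoters of 36 of the 39 genes were found in RefSeq on the build GRCm38.p6, from 250 bases before to 50 bases after the transcription start, and both strands were searched. Hyou1, Atf6 and Manf had no entry. The element was found in 8 of the 36 genes (22.2%), against 0.119% of the 32851 promoters in the table. The first share counts genes, which had 39 promoters, and the second counts promoters. The 8 comprised 7 of the 11 chaperone genes with a promoter (Hspa5, Hsp90b1, Pdia6, Calr, Canx, Dnajc3 and Creld2) and Syvn1. A related form, ATTGG and CCACG with 1 base of any kind between them, was found in Dnajb11 and Herpud1, against 0.0365% of promoters. The Xbp1 site TGACGTGG was found in 0 of the 36 genes and in 0.676% of promoters. A match is a description of letters in this window and no measure of binding.

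The 250 bases before the start of Hspa5 (chr2:34771840-34772089, plus strand) are shown because Hspa5 encodes BiP, the chaperone that also restrains the 3 sensors. Capitals mark the element, which begins 65 bases before the start.
Hspa5: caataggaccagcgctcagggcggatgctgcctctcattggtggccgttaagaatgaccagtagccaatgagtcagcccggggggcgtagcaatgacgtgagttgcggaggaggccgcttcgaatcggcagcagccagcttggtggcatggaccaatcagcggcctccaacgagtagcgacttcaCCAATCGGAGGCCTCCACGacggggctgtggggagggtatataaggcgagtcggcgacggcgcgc

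The element with 20 bases on each side is shown for the other genes that hold it, read along the transcribed strand, so that genes with a common sequence can be set beside their counts. Capitals again mark the element, which reads CGTGG first where it lies on the opposite strand. The stretches are chr10:86705618-86705676 and chr10:86705513-86705571 for Hsp90b1 (minus strand), chr12:17266471-17266529 for Pdia6 (plus), chr8:84847055-84847113 for Calr (minus) and chr11:50325780-50325838 for Canx (minus). They are chr14:118937807-118937865 for Dnajc3 (plus), chr15:88819500-88819558 for Creld2 (plus) and chr19:6046512-6046570 for Syvn1 (plus).
Hsp90b1, distal: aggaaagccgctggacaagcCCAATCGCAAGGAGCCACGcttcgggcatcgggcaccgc
Hsp90b1, proximal: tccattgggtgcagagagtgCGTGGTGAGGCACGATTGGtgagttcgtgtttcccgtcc
Pdia6: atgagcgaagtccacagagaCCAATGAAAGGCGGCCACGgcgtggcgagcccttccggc
Calr: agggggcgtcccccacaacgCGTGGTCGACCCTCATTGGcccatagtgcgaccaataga
Canx: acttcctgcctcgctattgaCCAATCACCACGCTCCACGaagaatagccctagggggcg
Dnajc3: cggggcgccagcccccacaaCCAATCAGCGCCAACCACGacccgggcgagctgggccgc
Creld2: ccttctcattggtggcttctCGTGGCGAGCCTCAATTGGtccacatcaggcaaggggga
Syvn1: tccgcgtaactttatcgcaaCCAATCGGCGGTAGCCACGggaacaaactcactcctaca

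ER chaperones and folding enzymes were abundant and lay at similar mean levels in both genotypes. Of the 13 genes, 0 were called in edgeR and 0 reached an unadjusted p under 0.05, 7 log2 differences were positive and 6 negative, and their median was 0.00069. Per transcript length, Calr stood highest of the 39 genes at a mean of 519.5 TPM (deposited abundance scaled for transcript length, 382.3 to 695.4 over the 7 libraries). Among the chaperones Hsp90b1 was next at 382.8 TPM, then Hspa5 at 309.2 TPM, with ranges that overlapped.

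Hspa5 (ENSMUSG00000026864, chr2:34771970-34777547, mm10) had 425.1, 460.8 and 932.4 CPM in wild-type replicates 1 to 3. In knock-in replicates 1 to 4 it had 833.3, 632.4, 592.4 and 761.9 CPM. Every knock-in library therefore lay above wild-type replicates 1 and 2 and below replicate 3. The means were 606.1 ± 283.1 CPM (SD, n = 3) and 705.0 ± 112.0 CPM (SD, n = 4), a log2 difference of 0.22 with a 95% interval from -0.40 to 0.83 (edgeR adjusted p = 0.799).

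Hsp90b1, which encodes the ER member of the HSP90 family, had 598.6, 744.3 and 1062 CPM in the wild-type livers, beside 846.6, 647.4, 704.3 and 874.4 CPM in knock-in livers. Calr, the lectin chaperone calreticulin, had 592.2, 729.5 and 958.2 CPM in the wild-type livers, beside 788.9, 622.6, 705.4 and 917.1 CPM in knock-in livers. For both genes the knock-in libraries lay inside the wild-type range. The log2 differences were -0.06 for Hsp90b1 and -0.0028 for Calr, with 95% intervals from -0.51 to 0.39 and from -0.43 to 0.42. Hsp90b1 shares 10.3% of its exonic bases with 1810014B01Rik on the opposite strand, whose reads the library protocol does not separate.

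Dnajb9 and Hyou1 had the smallest p of the chaperone group. Dnajb9, a co-chaperone of BiP, had 42.7, 39.1 and 67.3 CPM in the wild-type livers, beside 56.5, 92.0, 48.3 and 64.5 CPM in knock-in livers. Its highest value was in knock-in replicate 2, which was the highest library for no other chaperone, and the groups overlapped. On the log2 scale it differed by 0.39 (SE 0.25, edgeR adjusted p = 0.591). Hyou1, a large chaperone that exchanges the nucleotide of BiP, had 109.8, 95.2 and 207.0 CPM in the wild-type livers, beside 219.5, 162.5, 166.0 and 145.6 CPM in knock-in livers. The log2 difference was 0.34 (SE 0.26, edgeR adjusted p = 0.662), and only wild-type replicate 3 fell among the knock-in values.

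The wild-type libraries differed from each other in this group in a common order. In all 13 genes wild-type replicate 3 was the highest of the 3 wild-type libraries, which held for 35.1% of all genes tested. In 10 of the 13 it was the highest of all 7 libraries, against 16.5% of all genes, and wild-type replicate 1 was the lowest in 8 of the 13, against 13.9%. The ratio of replicate 3 to the mean of replicates 1 and 2 had a median of 1.58 over the 13 genes, beside 0.995 over all genes. Manf, a secreted ER stress protein chosen after its values were seen, had the highest ratio of 2.45, with 64.2, 70.3 and 165.0 CPM. Creld2 and Sdf2l1, also chosen after their values were seen, had ratios of 2.29 and 1.97. Dnajc3 had the lowest ratio of 1.11, and Canx, the membrane-bound lectin chaperone, had 1.16. Both hold the ER stress response element, as do Creld2 and Hspa5 (2.10). No match to that element was found in Sdf2l1 or in Dnajb9 (1.65).

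In this group the 4 knock-in libraries spread less than the 3 wild-type libraries, and in a common pattern. Knock-in replicates 1 and 4 both lay above replicates 2 and 3 in 10 of the 13 chaperone genes, against 15.6% of all genes tested. The exceptions were Dnajb9, Hyou1 and Creld2. The SD of log2 CPM was larger in wild type than in the knock-in for 12 of the 13 genes, against 50.8% of all genes, with medians of 0.42 and 0.24. Wild-type replicate 3 was the highest wild-type library in all 13, and the genes moved together, so the 12 are no independent counts. Whether the genotypes differ in spread was not tested.

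**Figure D2:**
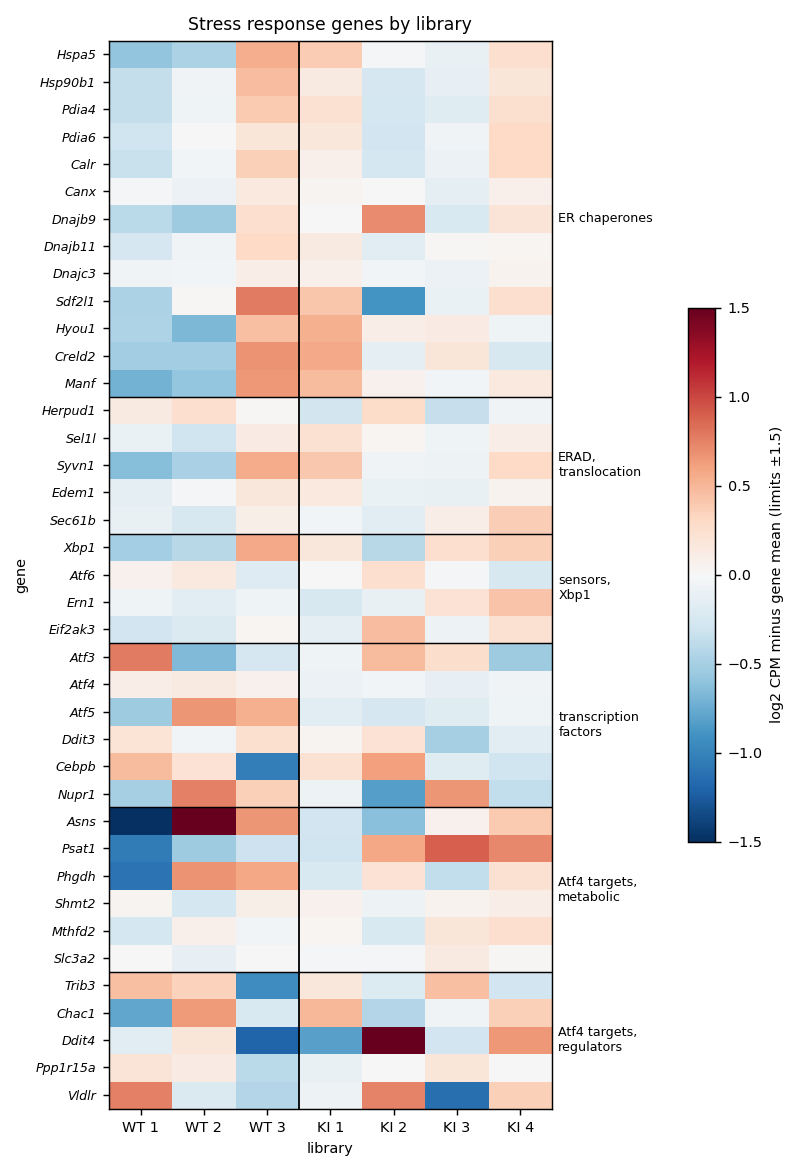
Log2 CPM of each of the 39 genes (rows, in role groups divided by lines) in each library (columns, 3 wild type left of the line and 4 knock-in right), minus the mean of the gene over the 7 libraries, with the colour limited to 1.5 either way. The chaperone rows are red in wild-type replicate 3, which was the highest library for 10 of the 13, and blue in wild-type replicate 1, which was the lowest for 8.

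The difference between genotypes in the chaperone group followed the library that was left out. Without wild-type replicate 3, all 13 chaperone genes had positive log2 differences, against 50.4% of all genes, and their median moved from 0.00069 to 0.21. Replicate 3 was the highest wild-type library in all 13, so leaving it out was bound to raise each difference. The counts without it are therefore no test of a difference between the genotypes. Without replicate 1 the median was -0.04 with 4 of 13 positive, and without replicate 2 it was -0.03 with 5 of 13 positive. Without replicate 3, 9 of the 39 genes were higher in the knock-in at an unadjusted p under 0.05, against 5.77% of all genes tested in that fit. They were Hspa5, Dnajb9, Hyou1, Creld2, Manf, Sel1l, Syvn1, Xbp1 and Psat1. In either direction this made 10 of 39, against 10.6% of all genes, while without replicate 1 it was 3 of 39 against 14.7% and without replicate 2 it was 1 of 39 against 5.89%. Without knock-in replicates 1 to 4 in turn, 2, 3, 1 and 2 of the 39 were counted, against 9.55%, 9.12%, 8.55% and 10.5% of all genes, and 5, 12, 10 and 5 of the 13 chaperones had positive differences. None of the 39 passed the edgeR threshold without wild-type replicate 3, and the smallest adjusted p was 0.226, for Manf (log2 difference 0.82, SE 0.15). Hspa5 then had 0.67 (SE 0.16, edgeR adjusted p = 0.302).

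**Figure D3:**
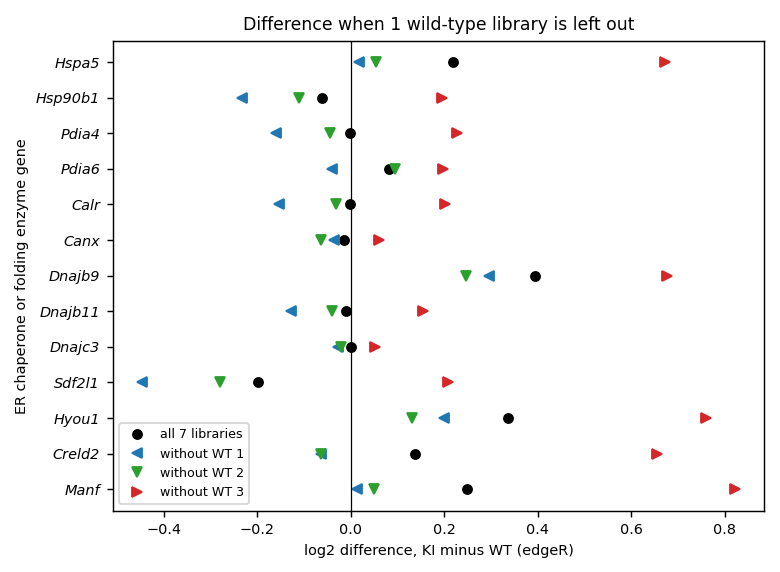
Log2 difference between genotypes (horizontal axis, knock-in minus wild type) for the 13 chaperone genes (vertical axis) with all 7 libraries and without each wild-type library in turn. Every value without wild-type replicate 3 lies above 0, and the median of the 13 is then 0.21.

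Other genes also set wild-type replicates 1 and 3 apart. On 12 circadian clock genes the median centred log2 CPM was -0.73 in wild-type replicate 3 and 0.41 in replicate 1, with -0.09 in replicate 2 and -0.25 to 0.22 in the knock-in. The clock genes went both ways: wild-type replicate 3 was the lowest of the 7 libraries for 8 of them and the highest for the other 4, Cry1, Nr1d1, Arntl and Npas2. On 5 genes of the feeding and insulin response (Srebf1, Fasn, Pnpla3, Acly and Scd1) it was 0.49 in wild-type replicate 3 and -0.52 in replicate 1, with 0.26 in replicate 2. In the knock-in it was 0.80 in replicate 4, -0.45 in replicate 1, -0.23 in replicate 2 and -0.12 in replicate 3. On the chaperone genes it was 0.18 in both knock-in replicates 1 and 4, so these lists differed in replicate 1. On 9 genes of the fasting and glucocorticoid response it was -0.33 in wild-type replicate 3, 0.32 in replicate 1 and 0.19 in replicate 2. In the knock-in it was 0.51 in replicate 2, above every wild-type library, and -0.28 to -0.14 in the others. On 10 immediate early genes it was -0.68 in wild-type replicate 3, 0.37 in replicate 1 and -0.29 in replicate 2, with -0.54 to 0.39 in the knock-in. Markers of red blood cells (3 genes) summed to 282.9, 345.8 and 454.6 CPM in wild-type replicates 1 to 3, and those of bile duct cells (4 genes) to 4.69, 6.69 and 11.9 CPM. Most of the bile duct rise came from Sox9 (3.07, 5.17 and 9.21 CPM), while Krt7 and Epcam were lowest in replicate 2. Markers of Kupffer cells, the liver macrophages (7 genes), fell in sum, at 343.8, 307.6 and 273.6 CPM, though Marco and Adgre1 were lowest in replicate 1. Their knock-in sum was 214.2 to 278.3 CPM. In knock-in livers the red blood cell sum was 258.9 to 351.8 CPM, and the bile duct sum lay inside the wild-type range, at most 9.93 CPM. The part of sampling time, feeding or other cell types in the chaperone values was not tested, and neither time nor feeding is given in the sources used here. In bulk liver, fewer cells of a type and less RNA per cell cannot be told apart.

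Genes for ER-associated degradation and translocation gave 0 calls in 5, with 3 positive differences and a median of 0.15. Herpud1, a membrane protein of the degradation complex, was the most abundant of them per length at 315.0 TPM. It had 404.0, 437.6 and 373.0 CPM in the wild-type livers, beside 302.9, 444.3, 289.8 and 354.4 CPM in knock-in livers. Its lowest wild-type value was in replicate 3, opposite to the chaperones, and the groups overlapped. Its log2 difference was -0.22 (SE 0.15, edgeR adjusted p = 0.622).

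Sel1l and Syvn1 encode the adaptor and the ubiquitin ligase of one complex that exports misfolded proteins. Sel1l had 111.6, 97.3 and 129.5 CPM in the wild-type livers, beside 139.5, 121.4, 113.8 and 127.4 CPM in knock-in livers, a log2 difference of 0.15 (SE 0.11, edgeR adjusted p = 0.647). Syvn1, chosen after its values were seen, had 37.1, 41.1 and 85.2 CPM in the wild-type livers, beside 54.6 to 76.7 CPM in knock-in livers, the same order as Hspa5. Edem1, a lectin that extracts misfolded glycoproteins, and Sec61b, a subunit of the translocation channel, had log2 differences of -0.0014 and 0.16.

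Of the sensors, Eif2ak3 and Ern1 had the smallest p and neither was called. Eif2ak3 had 11.9, 12.5 and 14.8 CPM in the wild-type livers, beside 13.2, 20.1, 13.8 and 17.0 CPM in knock-in livers. Knock-in replicates 2 and 4 lay above all wild-type libraries. On the log2 scale it differed by 0.29 (SE 0.16, edgeR adjusted p = 0.532). Ern1 had 73.3, 68.3 and 73.6 CPM in the wild-type livers, beside 64.8, 70.8, 89.4 and 103.4 CPM in knock-in livers, so that the knock-in held both the lowest and the highest libraries (edgeR adjusted p = 0.670). Atf6 had means of 85.8 ± 10.3 CPM (SD, n = 3) and 85.4 ± 12.0 CPM (SD, n = 4).

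Xbp1 (ENSMUSG00000020484, chr11:5520659-5525893), the transcription factor downstream of IRE1, followed the chaperones in wild type. It had 181.2, 193.9 and 385.3 CPM there and 292.3, 193.8, 308.7 and 330.6 CPM in knock-in livers. Wild-type replicate 3 was again the highest of the 7 libraries. Unlike Hspa5, knock-in replicate 2 lay at the level of wild-type replicates 1 and 2. The log2 difference was 0.15 (SE 0.28, edgeR adjusted p = 0.878). It was 0.59 (SE 0.21) without wild-type replicate 3 (edgeR adjusted p = 0.408) and -0.04 (SE 0.29) without replicate 1. Leaving out the highest library was bound to raise the difference, so this is no test of the genotypes. Gene counts do not tell spliced from unspliced Xbp1, so the activity of IRE1 was not measured.

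**Figure D4:**
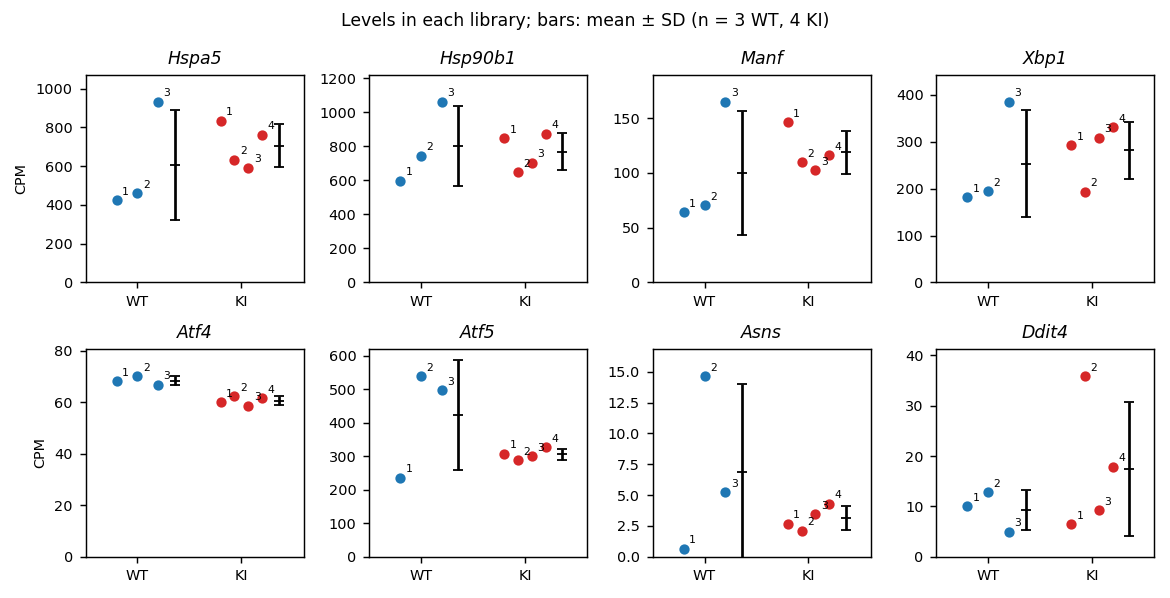
CPM in each library (points, numbered by replicate) of 8 genes in wild type and knock-in, with mean ± SD as bars (n = 3 and 4); each vertical axis starts at 0. Wild-type replicate 3 stands above replicates 1 and 2 for Hspa5, Hsp90b1, Manf and Xbp1, while Atf4 lies between 58.7 and 70.2 CPM in all 7 libraries.

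The stress transcription factors gave 0 calls in 6, with 1 positive and 5 negative differences and a median of -0.20. Atf4 (ENSMUSG00000042406, chr15:80255184-80257540), the central factor of the integrated stress response, had 68.2, 70.2 and 66.7 CPM in the wild-type livers. In the knock-in it had 59.9, 62.2, 58.7 and 61.6 CPM. All 4 knock-in libraries lay below all 3 wild-type libraries, as in 10.9% of all genes for either direction, with means of 68.4 ± 1.73 CPM (SD, n = 3) and 60.6 ± 1.61 CPM (SD, n = 4). Its log2 difference was -0.17 (SE 0.07), with a 95% interval from -0.32 to -0.02, and it did not pass over all genes (unadjusted p = 0.0277, edgeR adjusted p = 0.403). Atf4 is controlled largely by translation, which these counts do not measure.

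Atf5, a related factor abundant in liver, had 236.1, 539.2 and 496.4 CPM in the wild-type livers, beside 307.2, 288.0, 300.5 and 326.3 CPM in knock-in livers. The knock-in libraries lay close together, between wild-type replicate 1 and the other wild-type libraries. On the log2 scale it differed by -0.47 (SE 0.24, edgeR adjusted p = 0.516). Without wild-type replicate 1, Atf5 had a log2 difference of -0.76 (SE 0.09), the sole call among the 39 genes (edgeR adjusted p = 0.0226). In that fit 0.691% of all genes were called, 98 in number, and 0.24% were called lower. Replicate 1 was the lowest of the 7 libraries for Atf5, so leaving it out was bound to lower the difference. The call without it is therefore no test of a difference between the genotypes.

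Ddit3, which encodes the pro-apoptotic factor CHOP, was low in every library. It had 4.83, 4.07 and 4.93 CPM in the wild-type livers, beside 4.28, 4.85, 2.97 and 3.72 CPM in knock-in livers (log2 difference -0.22, SE 0.18, edgeR adjusted p = 0.678). Cebpb, chosen after its values were seen, ran opposite to the chaperones, with 60.2 CPM in wild-type replicate 3 against 171.1 and 143.7 CPM in replicates 1 and 2. Of its exonic bases, 20.7% are shared with Tmem189 on the opposite strand, which the library protocol does not separate. Atf3 had 1.45 to 3.91 CPM and Nupr1 0.551 to 1.65 CPM over the 7 libraries, and neither was called.

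A site known from some genes downstream of Atf4 is the C/EBP-ATF response element, searched as TGATGNAA on both strands. It was found in 7 of the 36 genes with a promoter (19.4%) against 3.97% of all promoters, and in 0 of the 11 chaperone genes. The 7 comprised 4 of the 11 Atf4 targets, Asns, Trib3, Chac1 and Vldlr, and Herpud1, Atf3 and Nupr1. Herpud1 alone held this site and a form of the ER stress element, and they did not overlap. It is shown for Asns (chr6:7693215-7693242, minus strand) and Chac1 (chr2:119351039-119351066, plus strand), the Atf4 targets with the widest wild-type ranges that hold it. Capitals mark the site, which in Chac1 lies on the opposite strand.
Asns: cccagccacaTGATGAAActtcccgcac
Chac1: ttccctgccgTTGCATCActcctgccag

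The metabolic Atf4 targets, enzymes and a transporter of amino acid and one-carbon metabolism, gave 0 calls in 6, with 4 positive differences and a median of 0.07. Asns (ENSMUSG00000029752, chr6:7675169-7693254), asparagine synthetase, had 0.643, 14.7 and 5.22 CPM in the wild-type livers, which were 27, 587 and 251 counts. In the knock-in it had 2.69, 2.12, 3.45 and 4.31 CPM. The wild-type libraries spanned 22.8-fold and the knock-in libraries 2.03-fold, all inside the wild-type range. The log2 difference of -1.12 had an SE of 0.73 (edgeR adjusted p = 0.601). It was 0.09 without wild-type replicate 2, the highest library, and -1.65 without replicate 1, the lowest.

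Psat1 (ENSMUSG00000024640, chr19:15904678-15947337), an enzyme of serine synthesis, had the smallest p of the 39 genes and very few counts. It had 11, 15 and 21 counts in the wild-type livers and 20, 31, 40 and 38 counts in knock-in livers. In CPM this was 0.262, 0.374 and 0.437 against 0.441, 0.813, 1.01 and 0.894. The lowest knock-in library stood just above the highest wild-type library. The log2 difference was 1.13 (SE 0.36, unadjusted p = 0.0128, edgeR adjusted p = 0.346). Phgdh, the first enzyme of the same pathway, had 7 to 26 counts per library and a log2 difference of -0.26 (SE 0.44). The sign of the difference was opposite for these enzymes.

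Shmt2, the mitochondrial serine hydroxymethyltransferase, was the most abundant of the metabolic targets per length at 98.7 TPM. It had 160.1, 129.4 and 165.0 CPM in the wild-type livers, beside 162.9, 147.1, 161.7 and 166.8 CPM in knock-in livers. Its interval was narrow, with a log2 difference of 0.08 and a 95% interval from -0.16 to 0.31. Slc3a2, the shared heavy chain of several amino acid transporters, had 0.07 with an interval from -0.10 to 0.24. Mthfd2, a mitochondrial folate enzyme, had 1.29 to 1.84 CPM over the 7 libraries and a log2 difference of 0.14.

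The remaining Atf4 targets, 4 regulators and the lipoprotein receptor Vldlr, gave 0 calls in 5, with 3 positive differences and a median of 0.03. Ddit4, an inhibitor of mTORC1 and the most abundant of them per length at 15.8 TPM, had 10.1, 12.9 and 4.97 CPM in the wild-type livers. In the knock-in it had 6.47, 35.9, 9.30 and 17.9 CPM. Knock-in replicates 2 and 4 lay above all wild-type libraries and the others did not. Its log2 difference was 0.90 (SE 0.57, edgeR adjusted p = 0.588). Ddit4 is also a target of p53 and of glucocorticoids.

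Trib3, a pseudokinase that restrains Atf4, had 11.1, 10.4 and 4.28 CPM in the wild-type livers, beside 9.16, 7.11, 11.2 and 6.71 CPM in knock-in livers. Chac1, which degrades glutathione, had 3.69, 9.86 and 5.43 CPM in the wild-type livers, beside 8.98, 4.69, 6.11 and 8.10 CPM in knock-in livers. The groups overlapped for both genes, with log2 differences of -0.0071 and 0.14 and SEs of 0.32 and 0.34. Ppp1r15a, which encodes the phosphatase subunit GADD34 that reverses eIF2 phosphorylation, had 14.1 ± 2.99 CPM (SD, n = 3) and 14.3 ± 1.22 CPM (SD, n = 4). Wild-type replicate 3 was the lowest wild-type library for Trib3, Ddit4, Ppp1r15a and Vldlr, 4 of these 5 genes, against 35.6% of all genes tested. For the 13 chaperones that count was 0.

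Over the whole set, the SD of log2 CPM was larger in wild type than in the knock-in for 26 of 39 genes, against 50.8% of all genes tested. The median SD of the wild-type livers was 0.38 and that of the knock-in livers 0.26, beside 0.18 in both genotypes over all genes tested. Without wild-type replicate 3 the count was 12 of 39. That count rests on fewer wild-type libraries and has no share of all genes beside it, so it cannot be set against the 26. Of those 26, 12 were chaperone genes, which moved together across the libraries, so the 26 are no independent counts. Asns had the widest wild-type SD at 2.25, and Ddit4 the widest knock-in SD at 1.09. Atf4 had the narrowest in both genotypes, at 0.04.

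**Figure D5:**
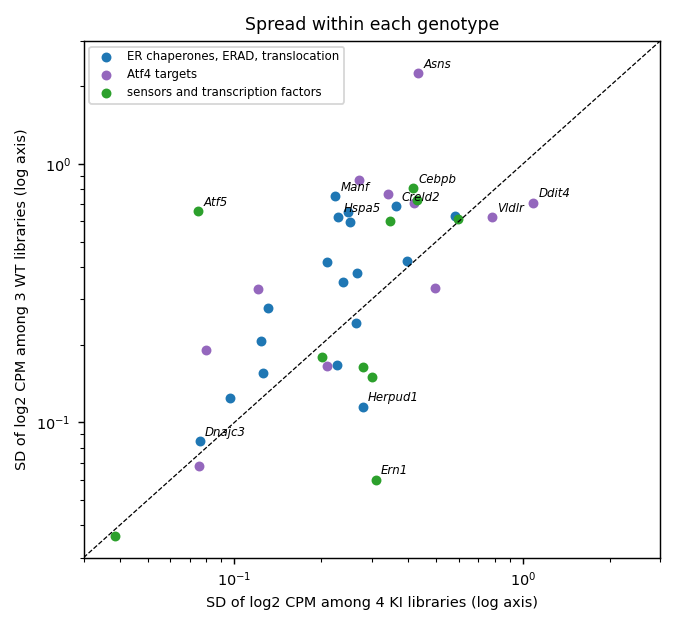
SD of log2 CPM among the 3 wild-type libraries (vertical, log axis) against the SD among the 4 knock-in libraries (horizontal, log axis) for the 39 genes; the dashed line marks equal SDs. Of the 39 genes, 26 lie above the line, among them 12 of the 13 chaperones, and Asns stands highest at 2.25.

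Other genes of the same pathways were taken from 2 wider lists. Of 53 further genes of ER folding, translocation and degradation, 0 were called in edgeR. At an unadjusted p under 0.05, 9 were higher and 1 was lower in the knock-in, against 5.6% and 4.97% of all genes, and the median difference was 0.02. The 6 with the smallest p were all higher. Fkbp11, a prolyl isomerase of secretory cells, had 7.48, 9.16 and 9.27 CPM in the wild-type livers, beside 12.0, 16.1, 20.9 and 16.3 CPM in knock-in livers, with no overlap. Its log2 difference was 0.92 (SE 0.18, edgeR adjusted p = 0.188, DESeq2 adjusted p = 0.00109), and the authors' deposited table gave a corrected p of 0.00123.

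Edem3, which trims mannose from misfolded glycoproteins, and Uggt1, which senses their folding, also had groups that did not overlap. Edem3 had 35.7 ± 5.15 CPM (SD, n = 3) and 50.6 ± 4.38 CPM (SD, n = 4), a log2 difference of 0.50 (SE 0.11). Uggt1 had 65.0 ± 1.97 CPM (SD, n = 3) and 80.5 ± 3.95 CPM (SD, n = 4), a log2 difference of 0.31 (SE 0.07). DESeq2 called both (adjusted p = 0.0181 and 0.0264) and edgeR did not (adjusted p = 0.250 and 0.257). Mbtps2, the protease that releases ATF6, Txndc11 and the oxidase Ero1lb had log2 differences of 0.34, 0.49 and 0.49 and adjusted p from 0.336 to 0.346 in edgeR. Mbtps2 shares 28.4% of its exonic bases with Yy2 on the same strand, so its counts are uncertain.

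Of 41 further genes of the Atf4 programme and the eIF2 kinases, 40 were tested and 0 were called in edgeR, with 6 higher and 3 lower at an unadjusted p under 0.05, against 5.6% and 4.97% of all genes. Tnfrsf10b, the death receptor DR5 and a target of both CHOP and p53, had 0.191, 0.275 and 0.187 CPM in the wild-type livers, beside 0.596, 1.13, 0.735 and 0.565 CPM in knock-in livers. These were 8, 11 and 9 counts in the wild-type livers and 27, 43, 29 and 24 counts in knock-in livers. The groups did not overlap, with a log2 difference of 1.79 and an SE of 0.37 (edgeR adjusted p = 0.194, DESeq2 adjusted p = 0.0188). The authors' deposited table gave it a corrected p of 0.0443. With so few wild-type counts, Tnfrsf10b may have passed the filter on low counts only through its knock-in libraries. The lack of overlap and these p-values are therefore no firm evidence of a difference between the genotypes. Eif2ak2, the interferon-inducible kinase PKR, had 12.9 ± 0.301 CPM (SD, n = 3) and 16.3 ± 1.10 CPM (SD, n = 4), a log2 difference of 0.34 (SE 0.08, edgeR adjusted p = 0.257).

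Vegfa and Cbs had log2 differences of -0.34 and -0.56, and the synthetases Wars and Gars 0.35 and 0.18, and none of the 4 was called by edgeR or DESeq2. Fgf21 and Gdf15 encode hormones that the liver releases under stress. Fgf21 had 2.02, 8.96 and 4.72 CPM in the wild-type livers, beside 1.74, 5.80, 4.21 and 2.57 CPM in knock-in livers (edgeR adjusted p = 0.725). Gdf15 had 38.0, 21.3 and 15.3 CPM in the wild-type livers, beside 28.1, 43.3, 43.8 and 31.7 CPM in knock-in livers (edgeR adjusted p = 0.525). Both overlapped between the genotypes.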

How the data were processed

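Liver RNA was measured by polyadenylated RNA sequencing, per the labels' protocols, and the submitters' processing notes name the build mm10. Which mapper, counter and annotation the authors used is not stated in any source read. The total counts per gene are whole numbers that the authors deposited without normalization, and the TPM values are the authors' own and serve only to compare levels between genes. The authors' deposited log2 fold change and corrected p-value were copied as given. The other 14 columns of per-library values were not used.

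The test was the quasi-likelihood F test of edgeR 4.0.16 (R 4.3.3), with genotype as the only term. Libraries were scaled by TMM, low genes were removed by filterByExpr at its defaults, and p-values were adjusted by Benjamini-Hochberg over all 13989 genes. CPM values are scaled by TMM, and log2 CPM for the SDs used a prior count of 2. DESeq2 1.42.0, limma 3.58.1, other scalings and filters, a replicate block and leaving out each library were alternatives. The total counts of 36928472 to 46755357 set the precision of low genes such as Psat1. The scripts were tested on simulated data with 200 changed genes. There, 10 of 169 calls in edgeR, 29 of 201 in DESeq2 and 9 of 166 in limma-voom were false. Libraries of one genotype all differed beyond sampling noise in a chi-square test. Exon overlap was taken from GENCODE release M21, promoters from RefSeq.

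The genes and lists were chosen with earlier results of these data known, so no p-value was adjusted over a list alone. A gene of the feeding list is not reported here, and the list's values were computed without it. Values in every library are given for genes with an unadjusted p under 0.05, for the 2 genes of each role group with the smallest p, for the most abundant of each group per length, and for Hspa5, Hsp90b1, Xbp1, Atf4, Ddit3, Asns and Trib3. From the wider lists the 6 genes with the smallest p, and Fgf21 and Gdf15, were named.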

Additional observations from a re-analysis of the deposited data

How the results depend on the processing

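The count of called genes of the set was 0 under both other scalings, DESeq2, limma-voom, both other filters, robust dispersion and the replicate block, and 0 to 1 when each library was left out. The 1 was Atf5 without wild-type replicate 1. Over all genes the count was 5 with all libraries, 208 in DESeq2, 18 without an expression filter and 3 to 98 when each library was left out, the highest without wild-type replicate 1. With the replicate block, which used the libraries numbered 1 to 3, edgeR called 0 of all genes, with 1178 at an unadjusted p under 0.05. Whether the numbers pair the libraries is not known. Same-numbered libraries had correlations of -0.06, 0.0051 and -0.02 in their deviations from the group means. Other pairs ran from -0.24 to 0.26, and so few libraries cannot decide it.

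The median of the sensors and Xbp1 ranged from 0.066 to 0.30 when each library was left out, and the count of genes with a larger SD in wild type from 12 to 29. Leaving out a library also changes how many libraries the SD rests on. Of 583 log2 differences recomputed under the alternatives, 518 kept their sign and their side of the threshold and 64 changed sign, none of them passing in either fit. Differences near 0 changed sign in limma-voom for Pdia4 (0.014), Calr (0.012), Dnajb11 (0.0048), Edem1 (0.00030), Atf3 (0.068) and Trib3 (0.11). In DESeq2 Edem1 had 9.8e-05. With the replicate block Pdia6 had -0.016, Dnajc3 -0.016, Atf6 0.070, Atf3 0.25 and Trib3 0.16. Dnajc3 had -0.012 with upper-quartile scaling and -0.0024 without a filter. When each library was left out the ranges that crossed 0 were as follows. Among the chaperones they were -0.23 to 0.20 for Hsp90b1, -0.16 to 0.23 for Pdia4, -0.040 to 0.20 for Pdia6, -0.15 to 0.20 for Calr and -0.065 to 0.059 for Canx. They were -0.13 to 0.15 for Dnajb11, -0.027 to 0.052 for Dnajc3, -0.45 to 0.21 for Sdf2l1 and -0.065 to 0.65 for Creld2. In the other groups they were -0.068 to 0.089 for Edem1, -0.042 to 0.59 for Xbp1, -0.10 to 0.069 for Atf6, -0.27 to 0.52 for Atf3 and -0.21 to 0.41 for Cebpb. Among the Atf4 targets they were -1.65 to 0.091 for Asns, -0.027 to 0.14 for Shmt2, -0.33 to 0.23 for Trib3, -0.13 to 0.61 for Chac1, -0.14 to 0.14 for Ppp1r15a and -0.29 to 0.44 for Vldlr. Atf5 stayed negative throughout, from -0.76 to -0.26 when each library was left out.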

Other observations

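Cytosolic aminoacyl-tRNA synthetases, which charge transfer RNAs and include known targets of Atf4, were singled out after their values were seen. Of 12 genes, 11 had positive log2 differences, with a median of 0.14 and a range from -0.06 to 0.35, and 5 had groups that did not overlap. Over all genes tested, 50.1% were positive and 10.9% did not overlap. In edgeR 0 were called, and 4 (Aars, Gars, Lars and Wars) were higher at an unadjusted p under 0.05, against 5.6% of all genes. Aars shares 14.3% of its exonic bases with Exosc6 on the same strand. Among the clock genes Bhlhe41, also singled out after its values were seen, differed by 1.06 on the log2 scale (SE 0.37) and was not called by edgeR (adjusted p = 0.368).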
